A study of Mus musculus with 4 samples.

Results

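Natural killer (NK) cells were examined among CD45-positive cells of injured mouse muscle. They were chosen barcode by barcode from their own counts of unique molecular identifiers (UMIs, each standing for 1 captured RNA molecule). A barcode was taken as an NK cell where it had at least 500 detected genes, under 10% mitochondrial UMIs, at least 1 UMI of the receptor genes *Ncr1* (NKp46) and *Klrb1c* (NK1.1) together and at least 1 UMI of *Nkg7*, a gene of cytotoxic granules. It also had under 2 UMIs of *Cd3d*, *Cd3e* and *Cd3g* together, no UMI of the B cell gene *Cd79a*, under 5 UMIs of *C1qa*, *C1qb* and *C1qc* per 10000, and under 100 UMIs of *S100a8* and *S100a9* per 10000. These limits left out T cells, B cells, macrophages and neutrophils. The rule gave 188 NK cells of 17665 barcodes past the gene and mitochondrial limits, and of 20500 barcodes in all. By library they numbered 74 in the control and 21 in the KO at dpi2, and 32 in the control and 61 in the KO at dpi4.

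The muscle was the tibialis anterior of male mice aged 8 to 12 weeks, injured with cardiotoxin from the cobra *Naja pallida* and collected 2 days (dpi2) or 4 days (dpi4) after the injury. CD45-positive cells, that is, leukocytes, were enriched with magnetic beads and profiled by 10x Genomics 3′ single-cell RNA sequencing, with 1 library per group. Control mice were Bach1 fl/fl littermates without Cre. KO mice were Bach1 fl/fl with Cre driven by the *Lyz2* promoter, so that exon 4 of *Bach1* was removed in cells that use this promoter. All animals carried the floxed allele and received the venom, and the line had been backcrossed to C57BL/6J. *Lyz2* is a gene of monocytes, macrophages and neutrophils, and NK cells are not a lineage that this Cre is meant to reach. The study gives a group size for its single-cell sequencing but does not say whether this counts animals or pooled samples.

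NK cells are lymphocytes without a rearranged antigen receptor. They kill target cells through granules that hold perforin and granzymes, and they read the balance between activating receptors, such as NKG2D, and inhibitory receptors, such as many of the Ly49 family. Interleukins of neighbouring myeloid cells and type I interferons drive their activation, and in turn they release interferon gamma and chemokines that act on macrophages and dendritic cells. In injured muscle they are a minor population beside the myeloid infiltrate.

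Values over the libraries are given below in the order control at dpi2, KO at dpi2, control at dpi4 and KO at dpi4. Levels are CPM, the UMIs of a gene summed over the NK cells of a library per 1000000 of all their UMIs. The NK cells held 347797, 114777, 281146 and 490812 UMIs, with medians of 3976, 4623, 7346 and 6734 UMIs per cell, so 1 UMI was worth most in the KO at dpi2. With 1 library per group, no test between groups was possible and no p-value is given. All intervals are exact 95% intervals (Poisson for CPM, Clopper-Pearson for shares of cells, conditional binomial for ratios) and cover counting error only, not the spread between mice. Those of CPM and of CPM ratios treat each UMI as a separate draw, so they also leave out the spread between cells. Where 1 cell held most UMIs of a gene, as for *Ifng* below, such an interval is too narrow. A gene is called higher or lower by a size rule. Its CPM ratio had to be at least 2-fold, the interval of the ratio had to leave out 1, and the pair of libraries had to hold at least 50 UMIs of the gene. Over all genes with enough UMIs, 89 of 1426 (6.24%) passed for KO over control at dpi2, 26 higher and 63 lower, and 79 of 2303 (3.43%) at dpi4, 26 higher and 53 lower. With no minimum of UMIs the split was 218 higher and 152 lower at dpi2, the reverse balance, and 160 and 313 at dpi4. For dpi4 over dpi2, 148 of 1930 (7.67%) passed in the controls, 62 higher and 86 lower, and 149 of 1830 (8.14%) in the KO, 93 higher and 56 lower. This last split turned to 120 higher and 134 lower at a ratio of 1.5, and to 171 and 324 with no minimum of UMIs. With edgeR's TMM scaling, the splits were 17 higher and 84 lower at dpi2 and 141 higher and 35 lower over time in the KO, where this scaling moved all genes by 0.17 on the log2 scale. The split at dpi4 turned to 45 higher and 22 lower without the cell that held most UMIs of each gene in each library, to 32 and 24 without cycling cells, and to 28 and 29 with no CD3 UMI allowed. Without the top cells it was 5 higher and 104 lower at dpi2. Library totals were kept when the top cell of a gene was left out, so a library with fewer cells lost a larger part of each gene. Such ratios of single genes thus lean down at dpi2, with 21 KO cells against 74, and up at dpi4, with 61 against 32. Part of both changes in split is built in this way. The comparisons by genotype and by time share libraries, so they are not independent of each other.

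*Lyz2* and *Hmox1* set the KO libraries apart from the controls. A list of 26 myeloid genes did not, with log2 ratios over whole libraries of 0.17 at dpi2 and -0.23 at dpi4. *Bach1* itself did not differ by label over whole libraries, with 189, 187, 207 and 217 CPM, and the NK cells held only 12, 10, 5 and 13 of its UMIs. The counted reads come from the 3′ end of the transcript while the deleted exon is internal, so this level checks nothing. *Lyz2* stood at 9388 and 15844 CPM in the control libraries and at 17.5 and 21.6 CPM in the KO libraries. Its promoter is the one that drives Cre in the KO mice, so for this gene loss of *Bach1* and the Cre allele cannot be told apart. *Hmox1*, a heme oxygenase gene that BACH1 represses, stood at 502, 8190, 417 and 6326 CPM. Between 15 and 32 barcodes per library also occurred in another library, and none of them was an NK cell.

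The NK cell identity of the chosen barcodes was checked on genes that the rule did not use. *Gzma*, which encodes granzyme A, had 6182, 4043, 3372 and 4181 CPM in NK cells and was detected in 177 of the 188, against 310 CPM in the T cells of the control at dpi2 and 0.44 CPM in the macrophages of that library. *Eomes*, a transcription factor of conventional NK cells, had 328, 253, 267 and 273 CPM. *Klre1* and *Klrk1* (NKG2D) reached 934 and 940 CPM in the control at dpi2 and at least 597 CPM in every library. The 7 NK cell markers outside the rule were detected in each of the 4 libraries, with summed levels of 9997, 6622, 6036 and 6882 CPM. The 5 T cell markers outside the rule summed to 0, 0, 7.11 and 14.3 CPM, and *Cd5* and *Cd6* had no UMI in any library. The 4 B cell markers outside the rule summed to 0, 0, 7.11 and 2.04 CPM, and no cell held a UMI of the hemoglobin genes. Myeloid markers were present. The macrophage markers outside the rule were *Mertk*, which had no UMI, and 2 others, and they summed to 224, 105, 896 and 483 CPM. Most of this was *Apoe*, with 196, 95.8, 882 and 471 CPM, which was detected in 36 of 74, 8 of 21, 32 of 32 and 58 of 61 NK cells. The 4 monocyte markers summed to 1392, 941, 793 and 760 CPM, of which *Ccr2*, a receptor that NK cells also use, made up 776, 497, 455 and 630 CPM. At dpi4 *Vcan* had no UMI and *Chil3* had 1 and 0. Whether this was RNA from other cells was not tested. The 5 markers of type 1 innate lymphoid cells, a related tissue-resident lymphocyte, summed to 17.3, 139, 157 and 132 CPM.

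Cells were few near the receptor limit of the rule but not near its C1q limit. Of the 188 cells, 11 held exactly 1 UMI of the receptor genes, and *Gzma* was detected in all 11. Of 23 barcodes that met every other condition but had no receptor UMI, 2 held *Gzma*. The limit on C1q left out 43 barcodes that met all other conditions, 2, 7, 12 and 22 by library, and 41 of them held *Gzma*.

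The NK share of kept barcodes moved in opposite directions with genotype at the 2 time points. At dpi2, NK cells made up 1.23% (0.968 to 1.54) of the kept control barcodes and 0.553% (0.342 to 0.844) of those of the KO. This was a difference of -0.679 percentage points (-1.05 to -0.286) and a ratio of 0.449 (0.263 to 0.737). At dpi4, their share was 0.740% (0.507 to 1.04) for the control against 1.73% (1.32 to 2.21) for the KO, a difference of 0.986 points (0.482 to 1.53) and a ratio of 2.33 (1.497 to 3.70). Over time the share was lower by 0.491 points at dpi4 in the controls (a difference of -0.491, interval -0.881 to -0.0895) and 1.17 points higher in the KO (0.676 to 1.70). T cells, taken as barcodes with at least 2 CD3 UMIs, numbered 28, 14, 23 and 34. In T cells the difference in share, KO minus control, came to -0.0974 points (-0.363 to 0.197) on day 2 and 0.430 points (0.0336 to 0.857) on day 4. A share depends on all other cells in the library, and fewer NK cells cannot be told apart from more cells of another kind. Without the C1q and S100 limits the NK shares were 1.30%, 0.816%, 1.02% and 2.35%, in the same order between genotypes at each time. With both myeloid limits tightened, to no C1q UMI and under 10 UMIs of *S100a8* and *S100a9* per 10000, 52, 14, 6 and 14 cells were left, and the difference at dpi4 was 0.257 points (0.0150 to 0.539). The difference over time in the KO was then 0.0277 points, with an interval of -0.279 to 0.343 that includes 0. With mitochondrial UMIs under 5% the latter was 1.84 points (1.20 to 2.59).

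**Figure D1:**
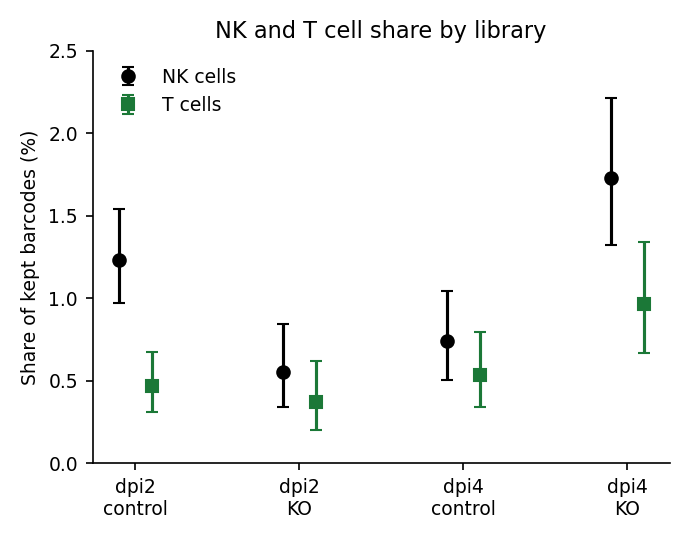
Share of kept barcodes (%) that were NK cells (circles) or T cells (squares) in each of the 4 libraries, with exact 95% intervals for counting error. The NK share was lower in the KO at dpi2 (0.553% against 1.23%) and higher in the KO at dpi4 (1.73% against 0.740%).

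*Gzma* and *Gzmb* transcripts were most abundant in the control at dpi2. The 22 genes of a cytotoxic effector list summed to 12113, 9288, 7277 and 7793 CPM. At dpi2, 1 of the 11 list genes with at least 50 UMIs was lower in the KO and none was higher, beside 4.42% of all 1426 genes lower and 1.82% higher. The median log2 ratio of the list was 0.11, against -0.04 over all genes. The gene was *Gzmb*, which encodes granzyme B, a protease that triggers apoptosis in the target cell. It had 1886, 497, 413 and 395 CPM, so that the control at dpi2 stood apart and the other 3 libraries had like levels. For KO over control, the log2 ratio of -1.93 (-2.34 to -1.53) at dpi2 compared with one of -0.06 (-0.40 to 0.28) at dpi4. For dpi4 over dpi2 in the controls it was -2.19 (-2.49 to -1.91). *Gzmb* was detected in 54, 13, 19 and 39 NK cells.

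*Prf1*, the gene of the pore-forming protein perforin, had 187, 113, 75 and 110 CPM and was lower at dpi4 in the controls, with a log2 ratio of -1.32 (-2.11 to -0.59). *Gzma* stayed within 2-fold in every comparison, as did *Ctsw* with 546, 453, 505 and 452 CPM and *Srgn*, the proteoglycan of the granule matrix, with 1090, 1403, 1081 and 943 CPM. *Serpinb9*, which shields the killer cell from its own granzyme B, had 934, 1011, 683 and 638 CPM. At dpi4 none of the 11 list genes passed the rule between KO and control, beside 3.43% of all 2303 genes, and the list median was -0.10 against 0.00. Over time, *Gzmb* and *Prf1* were the 2 of 11 genes lower in the controls, beside 4.46% of all 1930 genes. In the KO 3 of 11 were lower at dpi4 (*Fasl*, the death ligand, *Serpinb6b* and *Lamp1*), beside 3.06% of all 1830 genes. For *Lamp1*, 18 of 35 UMIs of the KO at dpi2 lay in 1 cell, and without the top cells its log2 ratio was -0.21 instead of -1.14.

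Depth per cell differed between libraries, so each cell was thinned to 2000 UMIs, which left 73, 21, 31 and 60 NK cells. *Gzma* and *Gzmb* were then found together in 68.5% (56.6 to 78.9), 38.1% (18.1 to 61.6), 41.9% (24.5 to 60.9) and 33.3% (21.7 to 46.7) of cells. Cells with *Gzma* but no *Gzmb* made up 24.7%, 38.1%, 48.4% and 50%. The interval of the control at dpi2 did not overlap that of the KO at dpi4 for the pair of granzymes, and it overlapped those of the other libraries.

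**Figure D2:**
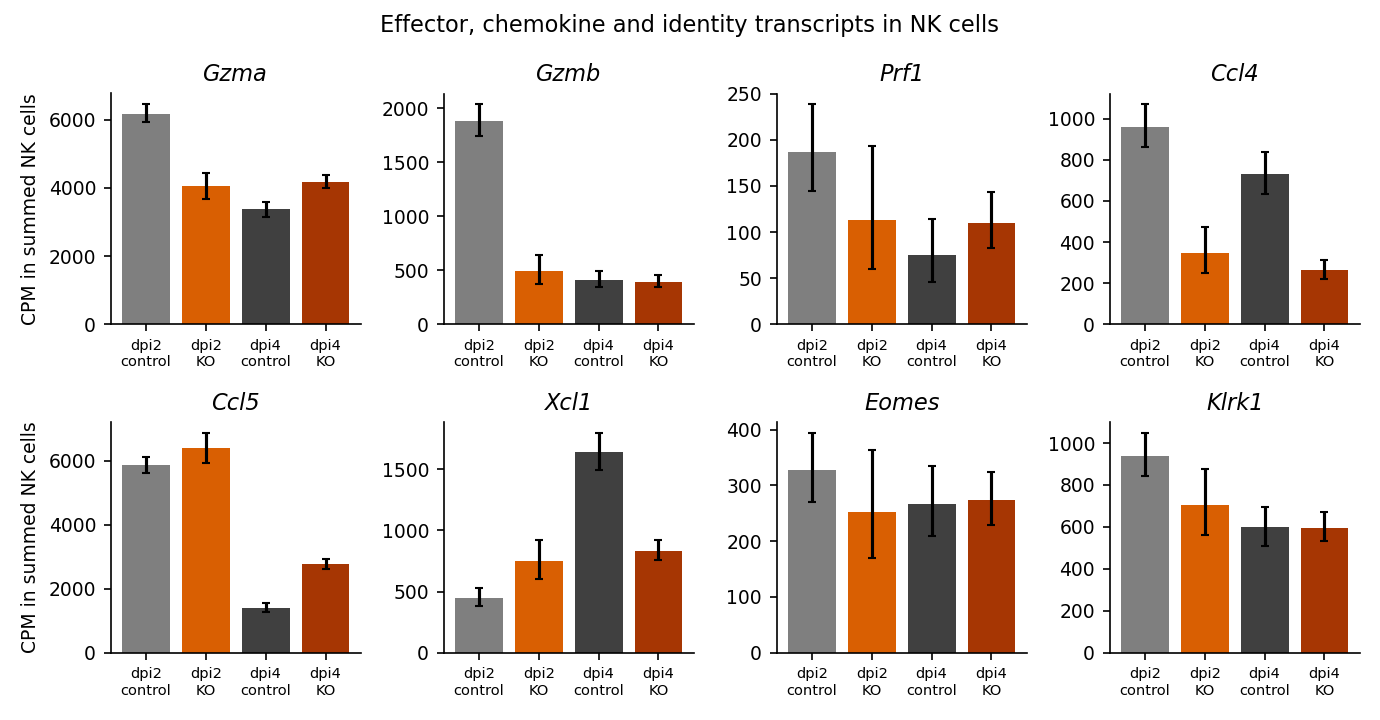
CPM of 8 genes in summed NK cells (each panel on its own scale, starting at 0) in the 4 libraries, with exact 95% Poisson intervals. *Gzmb* was highest in the control at dpi2 (1886 CPM), *Ccl4* was lower in the KO at both times, *Ccl5* was lower at dpi4 than at dpi2, and *Xcl1* was highest in the control at dpi4 (1640 CPM).

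Chemokine transcripts separated the libraries both by genotype and by time. *Ccl4*, a chemokine gene whose product draws monocytes and T cells, had 960, 349, 729 and 263 CPM in NK cells. Both KO libraries were below both controls, with a log2 ratio of -1.46 (-1.97 to -0.99) on day 2 and of -1.47 (-1.80 to -1.15) on day 4, and without the cell that held most of its UMIs in each library the ratios were -1.59 and -1.001. Among the 6 control and 14 KO cells that passed the 2 tightened myeloid limits at dpi4 the ratio was 0.72, the opposite direction. In T cells *Ccl4* had 427, 180, 680 and 185 CPM, also with both KO libraries below both controls. In macrophages, which also use the gene, it had 837, 862, 673 and 645 CPM, so the difference there stayed within 2-fold. *Ccl3*, its close relative, had 118, 87.1, 210 and 36.7 CPM in NK cells and was lower in the KO at dpi4, with a log2 ratio of -2.52 (-3.37 to -1.73). Of its 59 UMIs in the control at dpi4, 35 lay in 1 cell, and without the top cells the ratio was -1.39. With both myeloid limits tightened it was 0.61.

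*Ccl5*, another chemokine gene of activated lymphocytes, followed time. It had 5860, 6395, 1401 and 2777 CPM and both dpi4 libraries were below both dpi2 libraries. The log2 ratios over time were -2.06 (-2.22 to -1.91) in the controls and -1.20 (-1.33 to -1.07) in the KO. At dpi4 the KO had 0.99 (0.82 to 1.15) more on the log2 scale, just short of 2-fold. *Xcl1*, the chemokine that attracts XCR1-positive dendritic cells, went the other way in the controls, with 451, 749, 1640 and 833 CPM. Its log2 ratio over time was 1.86 (1.60 to 2.13) in the controls and 0.15 (-0.19 to 0.51) in the KO, and it was detected in 36, 10, 26 and 53 cells. Among the cells within both tightened myeloid limits, 6 of them in the control at dpi4, the ratio in the controls was -0.009. The 16 genes of the cytokine and chemokine list held 1 lower of 6 with enough UMIs at dpi2, beside 4.42% of all genes lower, and 3 lower of 7 at dpi4 (*Ccl3*, *Ccl4* and *Ifng*), beside 2.3% of all genes lower at dpi4. The median log2 ratios were -0.16 and -0.98.

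*Ifng*, the gene of interferon gamma, rested on a single cell. It had 47, 8, 390 and 21 UMIs, of which 380 of the 390 in the control at dpi4 lay in 1 cell of 11491 UMIs. That cell also held 116 UMIs of *Cxcl10*, 16 of *Cd69*, 22 of *Gzmb*, 28 of *Gzma* and 8 of *Ncr1*. Without the top cells the log2 ratio of KO over control at dpi4 was -0.04 instead of -5.02. *Cxcl10*, a chemokine gene that interferon gamma induces, had 12, 1, 274 and 25 UMIs in 5, 1, 9 and 13 cells. It was lower in the KO at dpi4 both with the top cells, at -4.26 (-4.91 to -3.67), and without them, at -3.86.

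Transcripts of the type I interferon response were lower in KO than in control NK cells at both time points. These genes, most of them antiviral, are switched on together when interferon alpha or beta binds its receptor and the transcription factors it activates bind a short DNA element before the gene. Of 33 list genes, the files held 31. Their summed level was 3077, 1185, 3219 and 1396 CPM, and both KO libraries were far below both controls. On the log2 scale the sum differed by -1.38 (-1.64 to -1.12) on day 2 and -1.21 (-1.35 to -1.06) on day 4, KO over control, or by -1.39 and -1.17 without the top cells. Over time the summed level differed by 0.07 (-0.06 to 0.19) in the controls and 0.24 (-0.03 to 0.51) in the KO.

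Gene by gene, 30 of the 31 had a lower CPM in the KO at dpi2, and 30 of 31 at dpi4, with *Ifih1* (3 and 10 UMIs in the KO libraries) the exception each time. At dpi2, 8 of the genes had at least 50 UMIs in the pair. Of these, 6 were lower by the size rule, beside 4.42% of all genes, and none was higher, with a median log2 ratio of -1.40 against -0.04 over all genes. At dpi4, 5 of 11 were lower, beside 2.3% of all genes, with a median of -0.85 against 0.00. Only *Zbp1*, a sensor of nucleic acids that can trigger cell death, and *Parp14*, an ADP-ribosyltransferase, passed the rule at both times. *Zbp1* had 127, 52.3, 149 and 44.8 CPM, and its log2 ratios were -1.28 (-2.80 to -0.04) and -1.74 (-2.55 to -0.96). *Parp14* had 198, 26.1, 206 and 97.8 CPM, with ratios of -2.92 (-5.24 to -1.32) and -1.08 (-1.66 to -0.50). In both genes each KO library lay below each control. Among the 6 and 14 cells within both tightened myeloid limits at dpi4, *Parp14* had a ratio of 1.61.

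The other genes lower at dpi2 were *Ifi27l2a*, *Bst2*, *Trim30a* and *Ifi203*. *Bst2*, which encodes tetherin, a protein that holds budding viruses at the membrane, had 239, 61.0, 231 and 128 CPM and log2 ratios of -1.97 (-3.33 to -0.86) and -0.85 (-1.37 to -0.33). *Ifi203* had 426, 148, 405 and 226 CPM, and *Trim30a* had 293, 139, 299 and 173 CPM, both with each KO library below each control and the KO at dpi2 lowest. *Ifi27l2a* had 334, 61.0, 88.9 and 38.7 CPM, and 53 of its 116 UMIs in the control at dpi2 lay in 1 cell. At dpi4 *Isg15*, a ubiquitin-like modifier, *Ly6a* and *Ddx58* (RIG-I) were lower as well. *Isg15* had 109, 17.4, 217 and 57.0 CPM, with log2 ratios of -2.65 (-5.75 to -0.70) on 40 UMIs at dpi2 and -1.93 (-2.63 to -1.26) at dpi4.

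Several classical members had too few UMIs for the rule, and each KO library was again below each control. *Rsad2* (viperin) had 23, 0, 25 and 6 UMIs, *Usp18* had 13, 0, 25 and 8, *Ifit1* had 12, 0, 25 and 2, and *Mx1* had 15, 0, 13 and 3. At dpi2, 9 of the 31 genes had no UMI in the KO, whose NK cells were the fewest. *Ifi203* belongs to a family of near-identical copies, as do the *Ifit3* genes, and reads of such copies may be split between them.

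**Figure D3:**
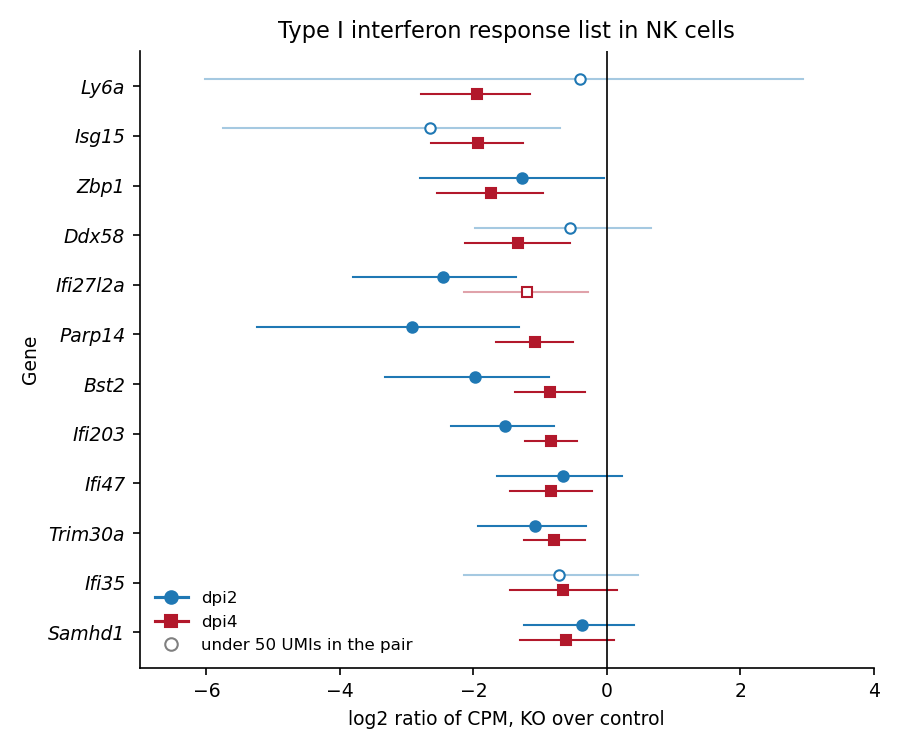
Log2 ratio of CPM, KO over control, in NK cells at dpi2 (circles) and dpi4 (squares) for the 12 genes of the type I interferon list with at least 50 UMIs in a pair, with exact 95% intervals. Open symbols mark pairs with under 50 UMIs, and the point of every gene lies below 0 at both times.

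The lower level was spread over many cells. After thinning to 2000 UMIs, the median number of list UMIs per NK cell was 4, 2, 4 and 1.5, and the highest cell held 22, 7, 32 and 9. At least 3 list UMIs were found in 68.5% (56.6 to 78.9) of control and 28.6% (11.3 to 52.2) of KO NK cells on day 2, and in 67.7% (48.6 to 83.3) and 40.0% (27.6 to 53.5) on day 4. The same list was set beside the other cells of the libraries. In T cells it summed to 6078, 4113, 6342 and 4853 CPM, log2 ratios of -0.56 and -0.39. Macrophages, taken as barcodes with at least 5 C1q UMIs per 10000, had 7815, 3382, 4130 and 3802 CPM, log2 ratios of -1.21 at dpi2 and -0.12 at dpi4. Whole libraries had -1.27 and -0.09. At dpi2 the list was thus lower in the KO in NK cells, in T cells, in macrophages and in the library as a whole, while at dpi4 it was lower in NK cells and, by less, in T cells, beside macrophages and a library with nearly the control level. Whether RNA from other cells took part in the NK cell values was not tested.

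Promoters of the list were read for the element that these factors bind. The interferon-stimulated response element was searched on both strands as 2 copies of GAAA with any 2 bases between them (TTTC on the opposite strand) in the 250 bases before the transcription start, taken from RefSeq for GRCm38.p6. It occurred in 978 of 32851 windows of that length over all genes (2.98%) and, gene by gene, in 936 of 27025 symbols (3.46%). Of the 33 list members 25 had an entry, and 13 of these (52%) held a match. The list was chosen for genes known to answer to interferon, so this share is a description of the list. Of the genes called lower, *Ddx58* held no match, and *Zbp1*, *Parp14*, *Ifi27l2a* and *Ly6a* had no entry. The windows of *Isg15* (chr4:156200819-156201068), *Bst2* (chr8:71537473-71537722), *Trim30a* (chr7:104465194-104465443), *Ifi203* (chr1:173942493-173942742) and, from the interferon gamma list, *Cxcl10* (chr5:92348890-92349139) are printed because the values above turn on these genes and each has a match. *Trim30a* and *Ifi203* have 2 start sites in the table, and the window with a match is shown. All are on the minus strand and are written 5′ to 3′, with the bases of the match or of overlapping matches in capitals.
Isg15: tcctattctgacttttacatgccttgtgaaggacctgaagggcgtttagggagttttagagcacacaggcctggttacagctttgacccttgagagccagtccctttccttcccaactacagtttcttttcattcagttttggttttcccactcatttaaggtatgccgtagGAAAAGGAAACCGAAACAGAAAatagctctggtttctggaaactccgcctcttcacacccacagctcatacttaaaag
Bst2: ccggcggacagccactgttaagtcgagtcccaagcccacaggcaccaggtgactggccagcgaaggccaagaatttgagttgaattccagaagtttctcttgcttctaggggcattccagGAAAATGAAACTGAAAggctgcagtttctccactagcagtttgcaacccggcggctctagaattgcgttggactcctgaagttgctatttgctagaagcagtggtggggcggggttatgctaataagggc
Trim30a: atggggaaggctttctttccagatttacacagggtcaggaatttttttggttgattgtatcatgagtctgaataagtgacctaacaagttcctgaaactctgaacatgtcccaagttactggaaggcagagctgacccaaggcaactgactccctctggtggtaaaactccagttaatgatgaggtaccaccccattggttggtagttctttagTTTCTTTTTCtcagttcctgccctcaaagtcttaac
Ifi203: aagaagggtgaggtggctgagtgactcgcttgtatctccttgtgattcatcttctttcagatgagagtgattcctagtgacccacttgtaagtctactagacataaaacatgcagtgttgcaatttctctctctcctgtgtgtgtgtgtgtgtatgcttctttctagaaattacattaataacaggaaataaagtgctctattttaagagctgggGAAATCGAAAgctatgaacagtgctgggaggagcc
Cxcl10: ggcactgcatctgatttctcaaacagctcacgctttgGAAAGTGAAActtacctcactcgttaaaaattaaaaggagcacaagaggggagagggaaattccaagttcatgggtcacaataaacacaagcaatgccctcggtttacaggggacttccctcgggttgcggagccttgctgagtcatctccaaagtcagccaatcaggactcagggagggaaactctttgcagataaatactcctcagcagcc
In *Isg15* 3 matches overlapped, which began between 78 and 66 bases before the start, and in *Bst2* 2 overlapped, at 130 and 124 bases. The match began 36 bases before the start in *Trim30a*, 35 in *Ifi203* and 213 in *Cxcl10*. A match is a run of letters and not a measured binding site.

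Genes that interferon gamma induces were summed at 1846, 1298, 3123 and 1732 CPM over 22 genes. Of those with at least 50 UMIs, 1 of 9 was lower at dpi4, which was *Cxcl10*, beside 2.3% of all genes, and the list had a median log2 ratio of -0.43 on day 2 and -0.22 on day 4. Beyond the lists, *Pyhin1*, an interferon-inducible gene of the same family as *Ifi203*, had 178, 34.9, 178 and 48.9 CPM and was lower in the KO at both times (-2.35 and -1.86). So was *Rnf213*, a large ubiquitin ligase gene, with 138, 43.6, 178 and 75.4 CPM (-1.66 and -1.24). In all, 7 genes passed the rule in the same direction in KO over control at both times of 1399 with enough UMIs at both. *Hmox1* was higher, and *Ccl4*, *Lyz2*, *Parp14*, *Pyhin1*, *Rnf213* and *Zbp1* were lower. The promoter of *Lyz2* is the one that drives Cre in the KO mice.

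Between genotypes, 1 activating receptor gene passed the size rule. Of 26 activating receptors and adaptors, 1 of 17 with enough UMIs was higher in the KO at dpi2 (*Klrb1b*, log2 ratio 1.20, 0.43 to 1.94), beside 1.82% of all genes higher, and none of 20 passed at dpi4, beside 3.43%, with list medians of -0.10 and 0.08. *Tyrobp* (DAP12), *Fcer1g* and *Hcst* (DAP10), the adaptors through which these receptors signal, had 2415, 2474, 1608 and 2080 CPM, 2300, 2152, 1583 and 1927 CPM, and 451, 566, 388 and 458 CPM. Over time, *Klra8* (Ly49H, the receptor for a cytomegalovirus protein) and *Klrb1a* were the 2 of 18 genes lower in the controls, beside 4.46% of all genes. *Klra8* had 716, 427, 334 and 473 CPM, highest in the control at dpi2, and with both myeloid limits tightened its log2 ratio over time in the controls was 0.37. *Klrb1b* was the 1 of 19 lower in the KO, beside 3.06% of all genes.

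Among 18 inhibitory receptors, *Klra1* (-1.48) and *Klra9* (-1.07) were lower and *Lilrb4a* was higher in the KO at dpi2, 3 of 7 genes with enough UMIs beside 6.24% of all genes, and none of 6 passed at dpi4, beside 3.43%. With the barcodes that Scrublet called doublets left out, 1 of 6 was lower and none higher at dpi2, and *Lilrb4a* had a log2 ratio of -0.20. *Klra1* was found in 8, 3, 4 and 8 cells only. *Klrd1* (CD94), the partner of the NKG2 chains, had 949, 758, 829 and 992 CPM and stayed within 2-fold throughout. Ly49 genes are near-identical copies, so reads may be split between them. Counted per cell after thinning, at least 1 of 6 Ly49 genes (*Klra1*, *Klra3*, *Klra4*, *Klra7*, *Klra8* and *Klra9*) was found in all but 3 of 73, 5 of 21, 8 of 31 and 11 of 60 NK cells, and 3 or more in 39.7%, 23.8%, 19.4% and 28.3%. In T cells 5 in all held a Ly49 UMI, 2 of 21 in the control and 3 of 33 in the KO at dpi4.

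Of 12 cytokine receptor and JAK-STAT genes with enough UMIs, 1 was lower at dpi4 in the controls and none was higher, beside 4.46% and 3.21% of all genes. In the KO 2 of 10 were lower and 1 was higher, beside 3.06% and 5.08% of all genes. *Ifngr1*, a chain of the interferon gamma receptor, had 1021, 1080, 381 and 487 CPM, and both dpi4 libraries were below both dpi2 libraries (-1.42, -1.75 to -1.11, and -1.15, -1.47 to -0.82). *Il18r1*, a chain of the interleukin 18 receptor, was highest in the KO at dpi2, with 190, 392, 142 and 151 CPM and a log2 ratio of 1.05 (0.47 to 1.62) over its control. *Il2rb*, the chain that NK cells use for interleukins 2 and 15, had 454, 523, 313 and 410 CPM and did not pass. Of the 29 genes of the list, 11 had enough UMIs at dpi4 and none of them passed between genotypes, beside 3.43% of all genes. The count of this list between genotypes at dpi2 is not reported here, so the call of *Il18r1* stands without it.

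Of the 31 genes of a transcription factor list, 1 passed the rule between genotypes. *Id2* had 543, 340, 441 and 467 CPM, *Ets1* had 446, 514, 320 and 387, *Runx3* had 351, 366, 402 and 446, and *Irf8* had 647, 767, 534 and 597, all within 2-fold. None of 12 list genes with enough UMIs passed at dpi2 (6.24% of all genes) and 1 of 14 at dpi4 (3.43%). This was *Klf2*, a factor of quiescence and migration, with 161, 131, 128 and 40.7 CPM and a log2 ratio of -1.65 (-2.52 to -0.82) at dpi4. *Tbx21* (T-bet) had 33, 4, 28 and 47 UMIs and was lowest in the KO at dpi2, where its log2 ratio over the control was -1.44 (-3.40 to 0.05) on fewer than 50 UMIs.

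In the activation list, the KO at dpi4 stood lowest for *Cd69* and *Fos*. *Cd69*, an early activation marker that also holds lymphocytes in tissue, had 118, 139, 203 and 32.6 CPM. Its log2 ratio at dpi4 was -2.64 (-3.54 to -1.82), and -2.58 without the top cells. *Fos* had 526, 340, 480 and 198 CPM, with a ratio of -1.28 (-1.67 to -0.89) at dpi4. In the same library *Cd69* had 319 CPM in T cells, against 209 CPM in the control, so T cells did not share its order. Of 27 activation genes with enough UMIs, 3 were lower in the KO at dpi4 (*Fos*, *Jun* and *Cd69*), beside 2.3% of all genes lower, and none was higher, with a list median of -0.14. At dpi2, 2 of 26 were higher (*Jun* and *Egr1*, both from 1 cell that is described below), beside 1.82% of all genes higher, and the list median was 0.12. Of 12 trafficking and adhesion genes with enough UMIs at dpi4, 1 was lower in the KO and none was higher, beside 2.3% of all genes lower. The median log2 ratio of that list was 0.14, and 14 of its 21 genes had a higher CPM in the KO and 7 a lower one. At dpi2 none of 12 passed, beside 6.24% of all genes. The chemokine receptor gene *Ccr2* had 776, 497, 455 and 630 CPM, within 2-fold in each comparison. After thinning, a UMI of *Klrg1* and of *S1pr5*, markers of late NK cell maturation, was found in 1 of 73 NK cells each in the control at dpi2 and none of *Cx3cr1*, which at this depth says little of how many cells use these genes. *Thy1* had 83.4, 192, 181 and 261 CPM and was lowest in the control at dpi2, with log2 ratios of 1.20 (0.33 to 2.05) for the KO at dpi2 and 1.12 (0.44 to 1.83) for the controls over time, the latter turning to -0.68 with both myeloid limits tightened.

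Proliferation set the 2 time points apart. The 23 genes of a proliferation list summed to 2671, 2535, 8401 and 5638 CPM, and 8 of 10 with enough UMIs were higher at dpi4 in the controls and 8 of 11 in the KO, beside 3.21% of 1930 and 5.08% of 1830 genes. The medians were 2.13 and 1.45, against -0.04 and 0.01 over all genes. *Mki67* (Ki-67) had 1, 0, 89 and 76 UMIs in 1, 0, 7 and 9 cells, and *Top2a*, the topoisomerase of dividing cells, had 3, 3, 139 and 113 UMIs. *Stmn1* had 31.6, 78.4, 573 and 428 CPM, and *Hmgb2* had 414, 479, 1882 and 1078 CPM. Each dpi4 library was above each dpi2 library in all 4 genes. Without the cycling cells counted below, *Hmgb2* had log2 ratios over time of -0.36 and -0.57, and with both myeloid limits tightened it had -0.23 in the KO.

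These transcripts lay in few cells. Counting as cycling a cell with at least 3 UMIs of 9 mitotic genes, 0 of 74 NK cells cycled in the control at dpi2 (up to 4.86%) and 0 of 21 in the KO (up to 16.1%). At dpi4, 7 of 32 did in the control, 21.9% (9.28 to 40.0), and 7 of 61 in the KO, 11.5% (4.74 to 22.2). The 7 in the control held 9 to 137 such UMIs, while 3 of the 7 in the KO held 3, 3 and 5, near the limit, and the other 4 of 61 held 35 to 116. The difference over time was 21.9 points (8.37 to 40.0) in the controls and 11.5 points (-5.99 to 22.2) in the KO. Between genotypes at dpi4 it was -10.4 points (-29.7 to 6.16), an interval that includes 0. Cells were not thinned for this count, and NK cells were deeper at dpi4. Their medians were 7346 and 6734 UMIs at dpi4 against 3976 and 4623 at dpi2, so the comparison over time is not at equal depth. Cycling cells were deeper, with medians of 16575 and 13341 UMIs against 6173 and 6262 in the other cells. *Gzma* had 3374 CPM in the cycling and 3371 CPM in the other cells of the control, and 3652 and 4347 CPM in the KO. *Prf1* had 51.5 against 91.1 CPM in the control and 85.3 against 118 CPM in the KO. *Ccl5* was lower in cycling cells in both libraries, with 369 against 2132 CPM and 1314 against 3236 CPM. At dpi4, 3 of 17 proliferation genes with enough UMIs were lower in the KO (*Mki67*, *Top2a* and *Ube2c*) and none was higher, beside 2.3% of all genes lower.

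**Figure D4:**
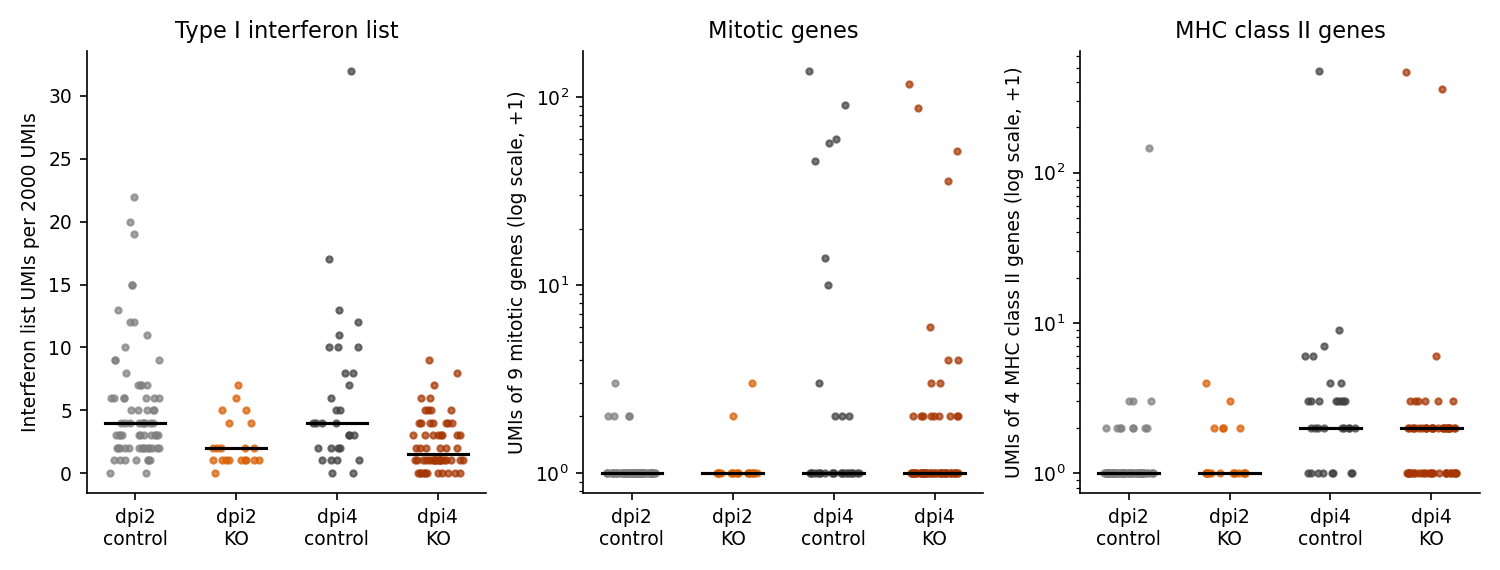
One point per NK cell in each library, with the median as a bar. Left, UMIs of the type I interferon list after thinning to 2000 UMIs (medians 4, 2, 4 and 1.5). Middle and right, UMIs of 9 mitotic genes and of 4 MHC class II genes on log axes with 1 added, where the signal lay in 7 and 7 cycling cells at dpi4 and in 1, 0, 1 and 2 cells.

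Other differences lay in single barcodes. Genes of MHC class II, which present antigen to T cells, summed with dendritic cell markers to 506, 200, 2013 and 1966 CPM, and 5 of 5 with enough UMIs were higher at dpi4 in the controls and 4 of 5 in the KO, beside 3.21% and 5.08% of all genes. Of the 158, 9, 530 and 871 UMIs of *H2-Aa*, *H2-Ab1*, *H2-Eb1* and *Cd74*, 144, 0, 475 and 828 lay in 1, 0, 1 and 2 cells that held at least 20 each. In the KO at dpi4, 1 barcode of 22315 UMIs held all 136 UMIs of *Ccl1* and 53 of 69 UMIs of *Il1b*, together with 134 of *Cd74*, 8 of *Ncr1* and none of *Gzma*. In the control at dpi4, 1 barcode held 163 of 164 UMIs of *Fabp4*. The high level of each of these genes rests on 1 barcode per library, or on 2 for MHC class II in the KO. Whether these barcodes hold 1 cell or more was not tested beyond a doublet score. Scrublet called 3 of the 188 NK cells doublets, 1 in each library except the control at dpi4.

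The same held for several of the genes that were higher in the KO at dpi2. The barcode with the most UMIs of that group, 14943, held 151 of 176 UMIs of *Hmox1*, 79 of 102 of the neutrophil chemokine gene *Cxcl2*, 67 of 69 of *Ccl6*, 26 of 32 of *Jun* and 18 of 26 of *Egr1*. It was 1 of the 3 that Scrublet called. Without the top cells the log2 ratio of *Cxcl2* was 1.37 instead of 2.78, and those of *Ccl6*, *Jun* and *Egr1* were negative, at -2.04, -0.34 and -0.44. In the control at dpi2, 1 barcode held 83 of 94 UMIs of *Chil3* and 192 of 399 UMIs of *Lyz2*. *Supt5* had 23 of 31 UMIs in 1 cell of the KO at dpi2.

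Among genes linked to BACH1, *Hmox1* was higher in KO NK cells at both times, as in the libraries around them. *Hmox1* had 7, 176, 5 and 81 UMIs in 6, 15, 5 and 46 NK cells, a log2 ratio of 6.25 (5.18 to 7.59) on day 2 and of 3.21 (1.93 to 4.88) on day 4. Without the top cells these were 3.92 and 3.46. After thinning it was found in 5.48%, 42.9%, 3.23% and 30.0% of NK cells. T cells, also not a lineage that this Cre is meant to reach, had 17.6, 167, 0 and 239 CPM, and macrophages had 604, 9594, 471 and 7225 CPM. *Lyz2*, the myeloid gene whose promoter drives Cre in the KO mice, showed the opposite order in NK cells, with 399, 1, 140 and 0 UMIs, as it did in the libraries. *Fth1*, the heavy chain of the iron store ferritin, had 1949, 3171, 1615 and 3113 CPM in NK cells and 13437, 30366, 13565 and 35876 CPM in the libraries. *Txnrd1*, a thioredoxin reductase gene, had 83.4, 78.4, 53.4 and 128 CPM, with a ratio of 1.27 (0.44 to 2.19) at dpi4, on levels of 96.3 and 150 CPM in the libraries of that day. Of the 20 genes of the list, 1 of 4 with enough UMIs was higher at dpi2 and 2 of 6 at dpi4, beside 1.82% and 1.13% of all genes higher, and none was lower.

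Myeloid RNA was measured in the NK cells beside these values. The 21 genes of a myeloid list that the NK rule did not use summed to 4129, 5593, 3006 and 2795 CPM in NK cells and 52659, 56154, 68206 and 57709 CPM in the libraries. The median gene had 5.44%, 7.33%, 4.09% and 5.54% of its library level. Over 2% of UMIs came from the list in 2, 1, 0 and 0 NK cells. How much of the *Hmox1*, *Lyz2* and *Fth1* in NK cells was RNA from other cells was not tested.

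None of 10 glycolysis genes with enough UMIs passed between genotypes at dpi2 (6.24% of all genes did) and 1 of 10 was lower at dpi4 (2.3% of all genes), with list medians of 0.28 and -0.12. Of 14 genes of type 1 innate lymphoid and tissue-resident cells, none passed between genotypes among 2 and 4 with enough UMIs, and no gene of the red cell and muscle list reached 50 UMIs.

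Some genes outside the lists also passed the rule. At dpi2, *Arid5a*, which encodes an RNA-binding protein, had 158, 34.9, 78.3 and 89.6 CPM and was lower in the KO (-2.18, -4.11 to -0.74). At dpi4, *PISD* (1.62, 0.68 to 2.70), *Capg* (1.59, 0.48 to 2.89) and *Rnaset2a* (1.46, 0.51 to 2.55) were higher in the KO, the latter in 7 cells of the control and 32 of the KO. *Capg*, an actin-capping protein gene, had 8 and 42 UMIs. The histone gene *Hist1h2ap* was lower in the KO at dpi4, with 147 UMIs in 6 cells of the control, 77 of them in 1 cell, and 41 in 5 cells of the KO, 19 of them in 1. Over time, *Pde3b*, a phosphodiesterase gene, had 48 UMIs at dpi2 and 6 at dpi4 in the controls (-2.69, -4.21 to -1.47), and *Scd2*, a fatty acid desaturase gene, was higher at dpi4 in both genotypes, with 40.3, 8.71, 164 and 145 CPM. *Emb*, a cell surface glycoprotein gene of immature NK cells, had 308, 558, 199 and 128 CPM and was lower at dpi4 in the KO (-2.12, -2.64 to -1.59).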

How the data were processed

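The authors deposited raw UMI counts per gene and cell barcode for 4 libraries, made with Cell Ranger 6.1.2 on mm10, per the submitters' processing notes and the file headers. Library totals were 79250213, 57010520, 80228489 and 62566722 UMIs (control and KO at dpi2, control and KO at dpi4). The labels name 10x 3′ chemistry version 2 and the study's methods another version. Groups were taken from the labels.

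NK cells were chosen by the rule given above, UMIs were summed over them per library, and CPM were computed from the sums (numpy 2.4.6, scipy 1.17.1, pandas 2.3.3). No cells were removed as doublets in the main values. Scrublet (scanpy 1.11.5) and edgeR 4.0.16 TMM factors were used as alternatives. The size rule was run on simulated Poisson counts with known changes. Those counts did not cluster in cells as the real UMIs did, so that run cannot show how the rule behaves where 1 cell holds most UMIs. Shares of cells with a UMI used cells thinned to 2000 UMIs. Named genes were the members of 18 lists, the 6 highest and 6 lowest genes past the size rule per comparison, and genes past it in the same direction at both times. The members and lists were chosen with earlier results of these data known. *Ifi208* and *Ifi213* were not matched, *Lilrb4* and *Cd244* were matched by alias, and T cell receptor constant genes were not used here. Some genes and the results that need them are not reported here. Free RNA was not subtracted. Promoters came from RefSeq (GRCm38.p6).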

Additional observations from a re-analysis of the deposited data

Results flagged for a closer look

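The genotype difference in NK cell share had opposite signs on the 2 days, -0.679 percentage points at dpi2 and 0.986 points at dpi4, and the counting intervals of both left out 0. With 1 library per group the difference between the days was not tested.

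*Jun* passed the size rule in opposite directions on the 2 days. For *Jun* the log2 ratio of KO over control was 1.56 at dpi2 and -1.32 at dpi4, a gap of 2.87, and 26 of its 32 UMIs in the KO at dpi2 lay in 1 cell. Without the top cell of each library the first ratio was -0.34. The gap was not tested.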

How the results depend on the processing

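No paired analysis was possible because the labels give no replicate numbers and each group is 1 library. No alternative left out a library, since that would leave no comparison. The differences in NK share kept their direction under every alternative, but 3 intervals that left out 0 came to include it, in the controls over time with mitochondrial UMIs under 5% (-0.406, -0.841 to 0.0836) and without C1q and S100 limits (-0.280, -0.703 to 0.159), and in the KO over time as given next. With no C1q UMI allowed and *S100a8* and *S100a9* under 10 UMIs per 10000 (both myeloid limits tightened together) they were 0.257 points (KO minus control at dpi4) and 0.0277 points (dpi4 minus dpi2 in the KO, -0.279 to 0.343), and with mitochondrial UMIs under 5% the latter was 1.84. The counts of genes past the size rule followed the thresholds. In the order KO over control at dpi2 and dpi4, then dpi4 over dpi2 in controls and KO, they were 165, 213, 348 and 254 at a ratio of 1.5, 201, 265, 415 and 317 with at least 20 UMIs, and 370, 473, 699 and 495 with no minimum. With both myeloid limits tightened, 7 genes passed at dpi4, 49 over time in the controls and 29 in the KO, where fewer cells were left. Without cycling cells 84 passed over time in the KO. The median log2 ratio of the type I interferon list for KO over control was below 0 on both days under every alternative run, taken over those of the 8 and 11 genes reported on that kept UMIs in both libraries, although with both myeloid limits tightened no gene of it had 50 UMIs at dpi4.

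Single genes changed sign as follows, and the cause was not tested beyond what each alternative leaves out. With Scrublet doublets left out, the log2 ratio of KO over control at dpi2 was -1.91 for *Ccl6*, 0.15 for *Cd74*, -0.31 for *Egr1*, -0.20 for *Jun*, -0.20 for *Lilrb4a* and -0.17 for *Supt5*, and over time in the KO it was 0.13 for *Egr1* and 0.31 for *Jun*. Without cells over 2% myeloid UMIs these were -1.71 for *Ccl6*, 0.10 for *Cd74*, -0.32 for *Egr1*, -0.19 for *Jun* and -0.18 for *Supt5*, then 0.19 for *Egr1* and 0.25 for *Jun* over time in the KO and 0.62 for *Lyz2* in the controls. Without the top cell of each gene they were -2.04 for *Ccl6*, 0.014 for *Cd74*, -0.44 for *Egr1*, -0.34 for *Jun* and -0.26 for *Supt5* at dpi2, 0.19 for *Egr1* over time in the KO, and -1.28 for *Fabp4* and -1.69 for *Ifng* over time in the controls. With both myeloid limits tightened, KO over control was 1.34 for *Cd74* and 1.47 for *Chil3* at dpi2, and 0.61 for *Ccl3*, 0.72 for *Ccl4* and 1.61 for *Parp14* at dpi4. Over time it was 0.12 for *Ifi27l2a*, 0.37 for *Klra8*, 0.29 for *Lyz2*, -0.68 for *Thy1* and -0.009 for *Xcl1* in the controls, and -0.14 for *H2-Eb1* and -0.23 for *Hmgb2* in the KO. With mitochondrial UMIs under 5%, *Chil3* was 1.46 at dpi2. Without cycling cells, the ratios over time were -0.51 for *Hist1h2ap* and -0.36 for *Hmgb2* in the controls, and -0.57 for *Hmgb2*, -0.17 for *Stmn1* and -1.29 for *Top2a* in the KO. The 21 NK cells of the KO at dpi2 limit every value of that library.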
